A study of Homo sapiens with 25 samples.

Results

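In control MDA-MB-231 cells, 840 broad domains were called on 2 chromatin targets, lamin B1 (LMNB1) and histone H3 trimethylated at lysine 9 (H3K9me3). They comprise the 410 domains of the control LMNB1 list and the 430 of the control H3K9me3 list, of 1921 domains in the 5 domain lists of the series. The genome was cut into 1 kb bins, and each bin was placed in 1 of 4 classes: in both lists (shared), in LMNB1 domains only, in H3K9me3 domains only, or in neither list. MDA-MB-231 is a human breast cancer cell line with mesenchymal features. The control H3K4me3 list held a promoter peak for the mesenchymal genes VIM (fold enrichment 30.2), CD44 (44.01) and AXL (14.2). It held none for the epithelial genes CDH1 and GATA3 or for the blood cell gene PTPRC, while ESR1 and EPCAM had peaks of 4.86 and 8.77.

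Cells were crosslinked with disuccinimidyl glutarate and formaldehyde before chromatin immunoprecipitation and sequencing. The labels give 2 libraries of control cells for LMNB1 and 2 for H3K9me3, and the control lists of H3K4me3 and H3K27ac peaks also stand for 2 libraries each. The comparison lists used below are the PML list, from 3 libraries, and the LMNB1 and H3K9me3 lists of cells in which PML was silenced by lentiviral short hairpin RNA, again from 2 libraries each. What the control cells received, and whether libraries came from separate cultures, is not given in the labels. Each target and condition has a single list with no value per library, so no comparison below has a replicate check and none was tested. The spread given with each value is the range or SD over the 22 autosomes, which is spread along the genome and not between samples. For promoter shares it covers only autosomes with at least 10 genes in the class. Read depth is unknown.

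The nuclear lamina is a mesh of lamin proteins, LMNB1 among them, that lines the inner face of the nuclear envelope. The stretches of chromatin that lie against it, called lamina-associated domains, are long, AT-rich and poor in genes, and most genes in them are silent. H3K9me3 is written by enzymes such as SUV39H1 and SETDB1, is bound by heterochromatin protein HP1, and marks repeats, gene-family clusters and part of the lamina-associated sequence. H3K4me3 marks the starts of active or poised genes, mostly at CpG-rich promoters, and H3K27ac marks active promoters and enhancers.

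Shared sequence made up 480 Mb, or 16.5% of the 2911 Mb of gap-free sequence on chromosomes 1 to 22 and X. LMNB1-only sequence covered 518 Mb (17.8%), H3K9me3-only sequence 149 Mb (5.10%), and sequence in neither list 1764 Mb (60.6%). Thus 48.1% of the LMNB1 length lay in H3K9me3 domains, with an SD over autosomes of 25.1 points, and 76.4% of the H3K9me3 length lay in LMNB1 domains (SD 12.6 points). H3K9me3 covered 48.1% of sequence inside LMNB1 domains and 7.77% of sequence outside them, and the inside value was the higher on 22 of 22 autosomes. The difference was smallest on chromosome 7, at 4.45 percentage points, and largest on chromosome 16, at 86.2 points.

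By number of domains, the lists met as whole domains more often than in part. Of the 410 LMNB1 domains, 142 (34.6%) held no H3K9me3 domain sequence at all, 171 (41.7%) were covered by it over at least 90% of their length, and 29 (7.07%) were covered by some but under 50%. Of the 430 H3K9me3 domains, 118 (27.4%) lay wholly outside LMNB1 domains, 223 (51.9%) were at least 90% inside, and 9 (2.09%) were covered by some but under 50%. The 29 partly covered LMNB1 domains were long, with a median of 4726 kb against 1394 kb for the whole list. The LMNB1 domains that held no H3K9me3 accounted for 321 Mb, which is 61.8% of all LMNB1-only sequence. Those covered over at least 90% held 295 Mb of the 998.5 Mb in the LMNB1 list, so by length partly covered LMNB1 domains weighed more. H3K9me3 domains at least 90% inside held 382 Mb of the 628.6 Mb in their list.

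Sequence of each class ran in stretches of different length. Shared stretches had a median of 1078 kb and the longest spanned 7.45 Mb. LMNB1-only stretches had a median of 516 kb, but 83.8% of their length was in stretches of at least 1 Mb and the longest reached 18.9 Mb. H3K9me3-only stretches were short, with a median of 142 kb and a longest of 5.27 Mb, and 184 of 412 were under 100 kb. Of the H3K9me3-only length, 30.7% was in 289 stretches that ran between shared sequence and sequence in neither list, with a median of 61.0 kb, and 65.9% was in 116 stretches with neither list on both sides, with a median of 713 kb. The 289 fringes are close to the resolution of the calls, since LMNB1 bounds lie on a 17 kb grid and H3K9me3 bounds on a 23 kb grid.

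At the borders, 28.7% of the 820 LMNB1 domain ends lay within 50 kb of an H3K9me3 domain end, with a median distance of 273 kb to the nearest. Coverage by H3K9me3 was 42.3% at 10 kb inside the LMNB1 border and 30.6% at 10 kb outside it. It then stayed near a plateau, at 55.4% 310 kb inside. LMNB1 coverage at the H3K9me3 borders was higher further in, with 45.7% at 10 kb inside, 72.8% at 310 kb and 92.9% at 990 kb. These values rest on 860, 714 and 168 borders, those whose domain reached that far. Shorter domains thus drop out along the way, and the H3K9me3 domains wholly outside LMNB1 had a median of 713 kb against 1058 kb for the whole list. How much of the rise comes from this change of domains was not tested.

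**Figure D1:**
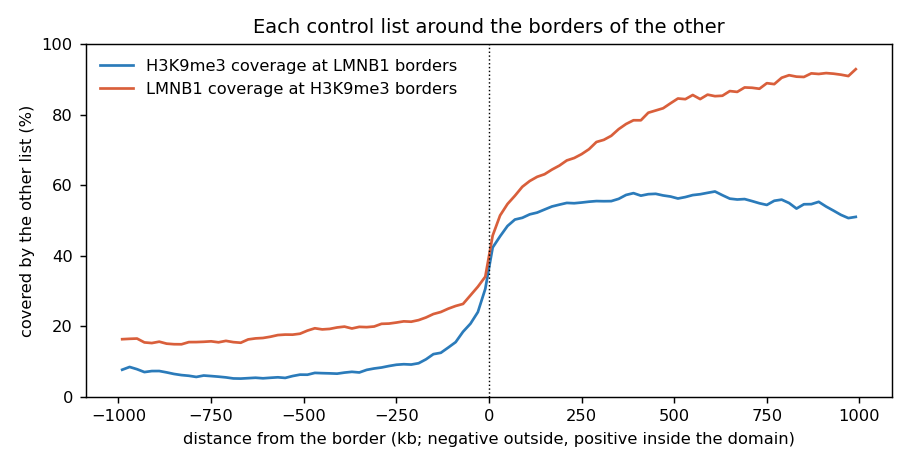
Share of borders covered by the other control list (y axis, %) against distance from the border (x axis, kb), for LMNB1 borders (blue, H3K9me3 coverage) and H3K9me3 borders (orange, LMNB1 coverage). LMNB1 coverage inside H3K9me3 domains reaches 92.9% at 990 kb, while H3K9me3 coverage inside LMNB1 domains stays near 55.4%. Only domains that reach a distance count there, which leaves 168 of 860 H3K9me3 borders at 990 kb.

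The balance of the classes differed strongly between chromosomes. On chromosomes 16, 17 and 19, 93.3%, 91.5% and 97.1% of the LMNB1 length was also in H3K9me3 domains. On chromosomes 4, 13 and 6 the same shares were 17.8%, 18.1% and 23.3%. Chromosome 19, which is gene-dense and carries most of the zinc finger clusters, had only 0.471 Mb of LMNB1-only sequence, against 15.97 Mb shared and 6.43 Mb H3K9me3-only. Chromosome 7 had the largest H3K9me3-only share, 11.6%, and the largest LMNB1-only share, 33.2%. Chromosome X had no shared bin, 1.00 Mb of LMNB1-only and 5.75 Mb of H3K9me3-only sequence in 155 Mb, so nearly all values below concern autosomes.

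**Figure D2:**
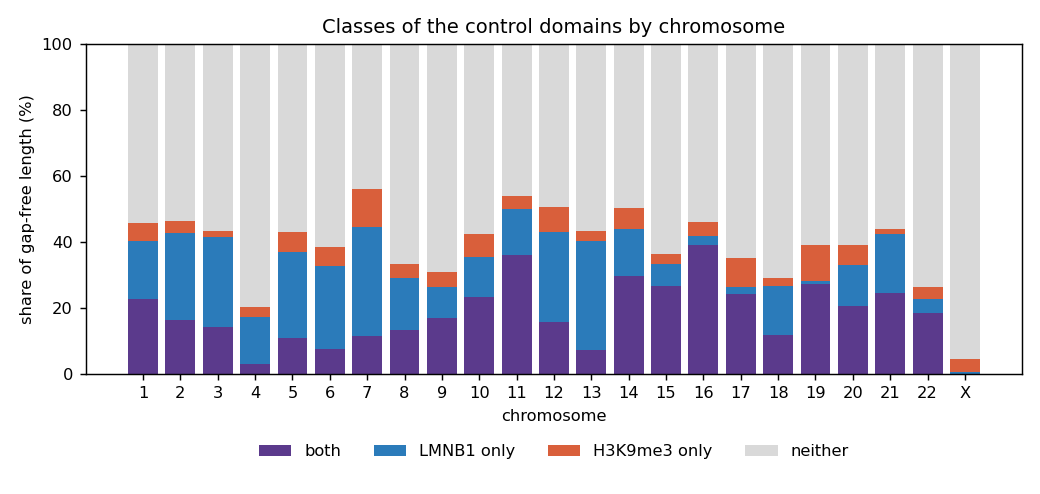
Share of gap-free length (y axis, %) in shared, LMNB1-only, H3K9me3-only and neither class for each chromosome (x axis). Blue LMNB1-only sequence is scarce on chromosomes 16, 17 and 19 and forms 33.2% of chromosome 7, and chromosome X holds almost no domain sequence.

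Pooled over autosomes, H3K9me3-only sequence lay nearer to chromosome ends and LMNB1-only sequence further from them. Autosomes differ in length and in their class shares, so distances in Mb mix chromosome length with position. No count per autosome was made. The median distance to the nearest chromosome end was 29.8 Mb for shared, 44.9 Mb for LMNB1-only, 17.97 Mb for H3K9me3-only and 32.9 Mb for neither. In the outermost 5 Mb, 14.6% of sequence was H3K9me3-only and 1.83% was LMNB1-only. Beyond 40 Mb from an end those shares were 3.47% and 24.6%. Shared sequence varied less, with 17.96% in the outermost 5 Mb, 23.9% from 5 to 10 Mb and 16.5% beyond 40 Mb.

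Base composition separated the classes as clearly. GC content was 39.5% in shared, 36.5% in LMNB1-only, 44.3% in H3K9me3-only and 42.3% in neither class. On 21 of 22 autosomes shared sequence was richer in GC than LMNB1-only sequence, and on 22 of 22 it was poorer than H3K9me3-only sequence. When the genome was split into deciles by the mean GC of the surrounding 500 kb, 19.99% of the LMNB1 length in decile 1, the lowest, was also in H3K9me3 domains, 66.1% in decile 5 and 97.8% in decile 10. The reverse share was lower where GC was higher: 99.9% of the H3K9me3 length in decile 1 was in LMNB1 domains, 83.6% in decile 5 and 27.1% in decile 10.

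Gene starts were sparse in each domain class. Of 19970 protein-coding genes, 1267 (6.34%) started in shared, 1201 (6.01%) in LMNB1-only and 730 (3.66%) in H3K9me3-only sequence, and these shares are the background for the gene families below. The densities were 2.64, 2.32 and 4.91 genes per Mb, against 9.51 per Mb in neither class, and on 22 of 22 autosomes all 3 were below the density in neither class. Shared density was below LMNB1-only density on 17 of 22 autosomes. The genes also differed in size, with median lengths of 16.8 kb in shared, 62.3 kb in LMNB1-only, 26.5 kb in H3K9me3-only and 26.9 kb in neither class. Long non-coding RNA genes were less unevenly placed, with 5.00 starts per Mb in shared, 3.63 in LMNB1-only, 7.98 in H3K9me3-only and 7.53 in neither class.

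The longest stretches show the gene content of each class. The longest shared stretch, 7.45 Mb at chr16:58765001-66215000, held the starts of only CDH8 and CDH11, adhesion genes of the cadherin family. CDH11 had both an H3K4me3 promoter peak (fold enrichment 30.3) and an H3K27ac peak (11), and CDH8 had neither. The shared stretch on chromosome 21 (chr21:18630001-25553000) held a single gene start, that of the neural adhesion gene NCAM2, with an H3K4me3 peak of 5.53. The shared stretch on chromosome 11 (chr11:36639001-43299000) held only LRRC4C, a gene of synaptic adhesion, without a peak.

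The longest LMNB1-only stretches were longer than the longest shared ones and held more marked genes. Of all LMNB1-only genes 56.7% had an H3K4me3 and 46.0% an H3K27ac promoter peak, which is the background for the counts here. The longest, 18.9 Mb at chr7:108596001-127466000, held 56 gene starts, of which 35 had an H3K4me3 and 32 an H3K27ac promoter peak. Among them were the caveolae genes CAV1 (H3K4me3 25.7, H3K27ac 19.1) and CAV2 (22.1 and 8.87), the receptor tyrosine kinase gene MET (23.1 and 8.69) and the actin regulator WASL (52.1 and 25.6). The second longest (chr1:185402001-199733000) held 36 starts, 20 with an H3K4me3 peak, including the nuclear pore gene TPR (18.9 and 7.70) and PTGS2, which encodes a prostaglandin synthase (26.3 and 6.43). In the third (chr13:58765001-71859000), DIAPH3, an actin-nucleating formin gene, had peaks of 37.6 and 32.2.

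The longest H3K9me3-only stretch, 5.27 Mb at chr7:67344001-72611000, began 3 genes: AUTS2, linked to brain development, GALNT17, a glycosyltransferase gene, and CALN1, a neuronal calcium-binding protein gene. None had a promoter peak of either mark, although the 300 bases around the AUTS2 start hold 55 CpG dinucleotides. The third longest, chr19:51750001-53797000, was of another kind. It held 50 gene starts, 38 with an H3K4me3 and 37 with an H3K27ac peak, from the formyl peptide receptor genes FPR1, FPR2 and FPR3 (no H3K4me3 peak) to zinc finger genes such as ZNF577 (16.8 and 3.50) and the phosphatase subunit gene PPP2R1A (17.6 and 27.03).

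Promoters in H3K9me3 domains, shared or H3K9me3-only, were marked less often than LMNB1-only promoters, and promoters outside the domains were marked most often. An H3K4me3 peak lay within 1 kb of the start at 61.8% of all protein-coding genes, and an H3K27ac peak at 50.8%. H3K4me3 marked 21.3% of promoters in shared (270 of 1267), 56.7% in LMNB1-only (681 of 1201), 32.7% in H3K9me3-only (239 of 730) and 66.5% in neither class. H3K27ac marked 15.6%, 46.0%, 25.3% and 55.0% in the same order of classes. LMNB1-only exceeded shared promoters for H3K4me3 on 17 of the 18 autosomes with at least 10 genes in each, and exceeded H3K9me3-only promoters on 16 of 16. Shared and H3K9me3-only promoters had no steady order: the shared H3K4me3 share was the lower on 10 of 16 autosomes and the higher on 5. When only the highest-scoring LMNB1 domains were kept, to about the length of the H3K9me3 list, the order of these classes turned, with 32.1% in shared and 23.9% in H3K9me3-only sequence for H3K4me3 and 23.9% and 18.02% for H3K27ac. Over autosomes the H3K4me3 share had an SD of 12.6 points in shared, 10.7 in LMNB1-only, 18.03 in H3K9me3-only and 3.84 in neither class. These SDs cover 19, 21, 17 and 22 autosomes, those with at least 10 genes in the class. The H3K9me3-only share rests in part on chromosome 19, where it was 71.4%: without that chromosome it was 22.4% for H3K4me3 and 14.6% for H3K27ac, and the shared values were 15.8% and 10.4%.

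**Figure D3:**
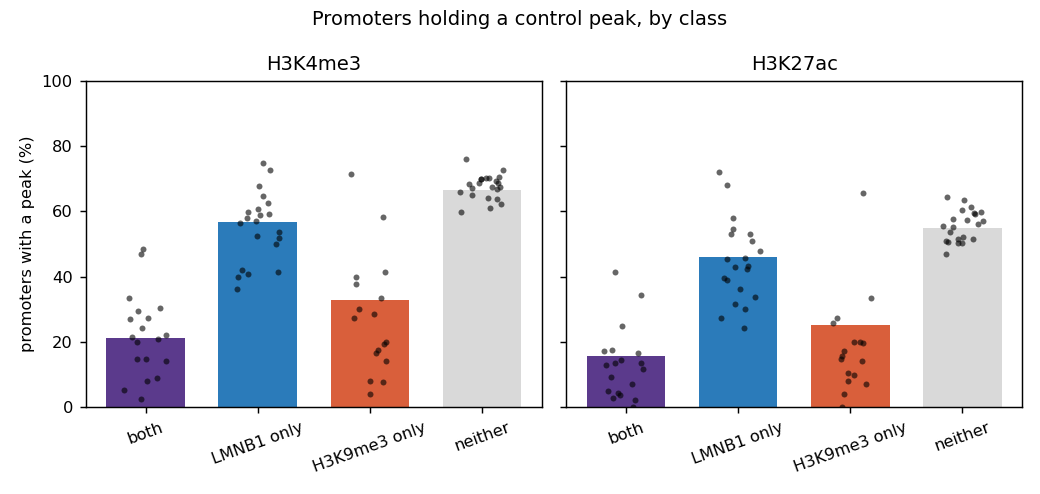
Promoters with a control H3K4me3 (left) or H3K27ac (right) peak within 1 kb of the start (y axis, %), by class (x axis). Bars give all genes of the class and each point is an autosome with at least 10 genes in it. LMNB1-only bars (56.7% and 46.0%) stand well above the shared bars (21.3% and 15.6%), and the topmost H3K9me3-only point is chromosome 19.

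Promoter sequence differed between the classes, and marking was compared within strata of it. CpG dinucleotides were counted in the 300 bases that run from 250 before to 50 after each start in hg38. The median was 6 in shared, 18 in LMNB1-only, 17 in H3K9me3-only and 24 in neither class. Among promoters with at least 18 CpGs, H3K4me3 marked 45.1% in shared (181 of 401), 84.8% in LMNB1-only (518 of 611), 51.7% in H3K9me3-only (184 of 356) and 85.5% in neither class. Among promoters with 6 to 17 CpGs the shares were 33.3%, 53.97%, 33.8% and 44.5%, and among those with up to 5 CpGs they were 1.74%, 9.69%, 1.79% and 9.32%. LMNB1-only promoters were thus close to promoters outside the domains in the highest and lowest strata and above them in the middle one, and in each stratum promoters in H3K9me3 domains were marked less often, with or without LMNB1. The order of the class shares over all strata was the same when olfactory receptor, zinc finger and keratin-associated genes were left out, a choice made after their values were seen: 22.1% in shared, 58.0% in LMNB1-only, 23.1% in H3K9me3-only and 66.7% in neither class.

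The height of promoter peaks differed less between classes than their frequency. The median fold enrichment of H3K4me3 promoter peaks was 19.6 in shared, 21.3 in LMNB1-only, 17.3 in H3K9me3-only and 18.2 in neither class. For H3K27ac the medians were 9.68, 9.53, 6.60 and 8.20, the lowest in H3K9me3-only sequence. The most enriched H3K4me3 promoter of each class carried a similar CpG-rich core. These were SVIP in shared sequence (63.1), whose product inhibits degradation of proteins from the endoplasmic reticulum, PCNX4 in LMNB1-only sequence (71.1), the zinc finger gene ZNF8 in H3K9me3-only sequence (71.6), and TMX1 in neither class (82.3), which encodes a thioredoxin-related membrane protein. The 150 bases around each summit are shown to compare those cores, on the plus strand of hg38 with CpG dinucleotides in capitals.
SVIP: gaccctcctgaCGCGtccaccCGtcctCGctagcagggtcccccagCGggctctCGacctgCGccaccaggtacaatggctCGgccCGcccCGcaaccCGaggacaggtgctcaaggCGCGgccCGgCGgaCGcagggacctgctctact
PCNX4: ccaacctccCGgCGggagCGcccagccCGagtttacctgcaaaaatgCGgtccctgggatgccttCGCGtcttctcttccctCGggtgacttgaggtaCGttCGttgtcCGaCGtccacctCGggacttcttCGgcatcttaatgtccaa
ZNF8: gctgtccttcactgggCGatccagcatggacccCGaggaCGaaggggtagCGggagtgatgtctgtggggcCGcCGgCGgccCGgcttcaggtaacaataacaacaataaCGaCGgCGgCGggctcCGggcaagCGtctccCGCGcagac
TMX1: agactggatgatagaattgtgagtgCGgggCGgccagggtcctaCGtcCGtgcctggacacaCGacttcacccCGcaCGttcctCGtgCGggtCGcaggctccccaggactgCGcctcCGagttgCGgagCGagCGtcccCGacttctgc

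The SVIP window, chr11:22829542-22829691, lies in an intron of the canonical transcript, 184 bases beyond the start at its centre, and holds 16 CpGs at 72.0% GC. The PCNX4 window (chr14:60092325-60092474) shares 95 bases with exon 1 and holds 14 CpGs at 59.3% GC. The ZNF8 window (chr19:58279057-58279206) shares 91 bases with exon 1 and, like that of TMX1 (chr14:51240427-51240576), which shares 18, holds 16 CpGs at 66.0% GC. In GC content the SVIP window lay above that of TMX1, the PCNX4 window below it and the ZNF8 window at the same value.

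The other highest promoter peaks belonged to varied genes. In shared sequence the highest H3K27ac promoter peak was that of the prefoldin gene PFDN4 (84.9, with H3K4me3 at 35.9), followed by the zinc finger gene ZNF181 (44.8) and the splicing factor gene ZRANB2 (44.8). ORC5, an origin recognition complex subunit gene, and COX10, needed for heme A synthesis, had H3K4me3 peaks of 58.2 and 55.2. In LMNB1-only sequence, FBXO33, a gene of ubiquitin ligase targeting, had an H3K27ac peak of 69.1, and SMARCE1, a chromatin remodelling subunit gene, one of 45.3. In H3K9me3-only sequence, CKS2, a regulator of cyclin-dependent kinases, had peaks of 65.4 for H3K4me3 and 49.97 for H3K27ac, and CLK4, a splicing kinase gene, had 55.2 and 5.54.

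Over all sequence, peaks were least dense in shared and most dense in neither class. H3K4me3 summits occurred at 1.33 per Mb in shared, 2.65 in LMNB1-only, 3.34 in H3K9me3-only and 11.2 in neither class. For H3K27ac the densities were 3.43, 7.02, 8.95 and 20.2 per Mb. LMNB1-only and H3K9me3-only sequence had no steady order. LMNB1-only was the denser on 14 of 22 autosomes for H3K4me3 and on 12 of 22 for H3K27ac. Without chromosome 19 the H3K4me3 densities were 2.635 in LMNB1-only and 2.68 in H3K9me3-only, and the H3K27ac densities 6.998 and 8.463. With only the highest-scoring LMNB1 domains kept, LMNB1-only was the denser, at 2.648 against 2.366 for H3K4me3 and 7.037 against 6.238 for H3K27ac. Outside promoters, H3K27ac peaks numbered 3.02 per Mb in shared, 5.91 in LMNB1-only, 7.63 in H3K9me3-only and 14.7 in neither class. Peaks were denser near the borders in each class, inside and outside domains. Within 50 kb of a border H3K4me3 peaks occurred at 2.40 per Mb in shared and 5.90 in LMNB1-only sequence, against 1.26 and 2.43 further away. In H3K9me3-only sequence the densities were 4.48 and 3.06, and in neither class 16.2 and 11.02.

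Clustered gene families were placed very unevenly among the classes, and members of a cluster share their position, so counts of genes are not counts of independent events. Of 415 olfactory receptor genes, 262 (63.1%) lay in shared sequence, 29 in LMNB1-only, 16 in H3K9me3-only and 108 in neither class. On chromosome 11, which carries 178 of them, 128 were in shared sequence. Of all olfactory receptors, 1 had an H3K4me3 promoter peak, OR52N2 (5.42), in shared sequence. Keratin-associated protein genes, which encode hair matrix proteins, had 67 of 94 in shared sequence and the other 27 in neither class, including all 34 on chromosome 17 in shared sequence.

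Keratin-associated genes had no H3K4me3 promoter peak, but 10 had an H3K27ac peak, from 10 distinct peaks, all in shared sequence. Of these, 8 lay together on chromosome 17 between KRTAP2-1 (chr17:41046541-41047316, fold 14.1) and KRTAP4-6 (3.78). KRTAP2-3 (15.7) had the highest fold, KRTAP4-7 (13.1) and KRTAP4-9 (12.7) were close to it, and KRTAP4-8 (2.69) had the lowest. The remaining 2 were KRTAP20-4 (4.93) and KRTAP21-3 (7.48) on chromosome 21. These genes lie in tandem and resemble each other, so reads of 1 copy could be placed at another.

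Keratins, the intermediate filament genes of epithelia, split by locus. Of the 27 on chromosome 12, 21 were H3K9me3-only and 6 in neither class. Outside the domains were the simple-epithelial pair KRT8 (H3K4me3 27.5) and KRT18 (22.99). Of the 28 on chromosome 17, 16 were shared, 8 LMNB1-only and 4 H3K9me3-only. The basal keratin genes KRT14 and KRT17 were H3K9me3-only without a peak, KRT5 was H3K9me3-only with an H3K27ac peak of 3.55, and the luminal keratin gene KRT19 was shared with an H3K4me3 peak of 4.33.

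Zinc finger genes named ZNF, most of which encode DNA-binding repressors, were often marked also inside the domains. Of 509, 113 were shared, 9 LMNB1-only, 121 H3K9me3-only and 266 in neither class. Chromosome 19 held 246 of them, with 104 shared, 1 LMNB1-only, 101 H3K9me3-only and 40 in neither class. H3K4me3 marked 82 of the 104 shared and 91 of the 101 H3K9me3-only promoters there, against 37 of the 40 in neither class. ZNF317 in shared sequence had an H3K4me3 peak of 55.4, ZNF431 one of 50.4, and ZNF587 in H3K9me3-only sequence one of 52.1. ZNF274, whose product recruits H3K9 methylation to zinc finger genes, was itself H3K9me3-only, with peaks of 24.5 and 40.9.

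Immune and placental gene clusters lay in 1 class in some cases and were split in others. The subfamilies below were picked after their positions were seen. All 10 pregnancy-specific glycoprotein genes (PSG) were in shared sequence on chromosome 19, whereas of the 12 related CEACAM genes 3 were shared, 6 were H3K9me3-only and 3 in neither class. All 7 killer-cell immunoglobulin-like receptor genes and 4 of the 10 LILR genes beside them were shared, and the 12 SIGLEC genes were in neither class. Of 13 HLA class II genes, which serve peptide presentation to helper T cells, 8 were H3K9me3-only and 5 in neither class, and 2 of the 13 had an H3K4me3 peak. All 7 HLA-DR and HLA-DQ genes were among the H3K9me3-only ones, without a promoter peak of either mark, while the 6 HLA class I genes were in neither class and 5 of them had an H3K4me3 peak. All 10 SERPIN genes on chromosome 14, the serine protease inhibitor cluster that includes SERPINA1, were H3K9me3-only, and none had a promoter peak.

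Receptor and transporter families had members in every class. Of 45 GABA and glutamate receptor genes, 10 were shared (22.2%), 13 LMNB1-only (28.9%), 3 H3K9me3-only and 19 in neither class. In LMNB1-only sequence 4 of the 13 had an H3K4me3 peak, a share below the 56.7% of all genes in that class, and none had an H3K27ac peak. GABRB1 (H3K4me3 12.8), GRM8 (10.6) and GRIK2 (10.1) were among the 4. GABRE in H3K9me3-only sequence had peaks of both marks (10.5 and 3.635). Of 384 solute carrier genes, 11 were shared, 37 LMNB1-only (9.64%, against 6.01% of all genes), 17 H3K9me3-only and 319 in neither class (83.1%, against 83.99% of all genes). In LMNB1-only sequence 14 of the 37 had an H3K4me3 peak, against 1 of 11 in shared and 3 of 17 in H3K9me3-only sequence. Of all genes in these classes 56.7%, 21.3% and 32.7% had one, so solute carriers were marked less often in each. The highest peak was that of the zinc transporter SLC30A7 (51.7, a peak that also lies at the start of EXTL2).

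Of all protein-coding genes, 83.99% were in neither class, which is the background for the counts in this paragraph. Several families had no member in any domain class. These were the 39 HOX genes, the 53 clustered protocadherins, the 21 UDP-glucuronosyltransferase genes, the 17 type I interferon genes, the 16 kallikrein genes and the 48 proteasome subunit genes. Some of these families lie in few clusters, such as the 17 interferon genes, all on chromosome 9, so their genes are not independent counts. Of 83 ribosomal protein genes 1 was shared and 1 H3K9me3-only (RPL38, H3K4me3 16.7). All 20 genes of a housekeeping list and all 21 of a list of H3K9 methylation and HP1 genes were in neither class, as were 18 of 19 lamina and envelope genes, with TPR as the exception.

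**Figure D4:**
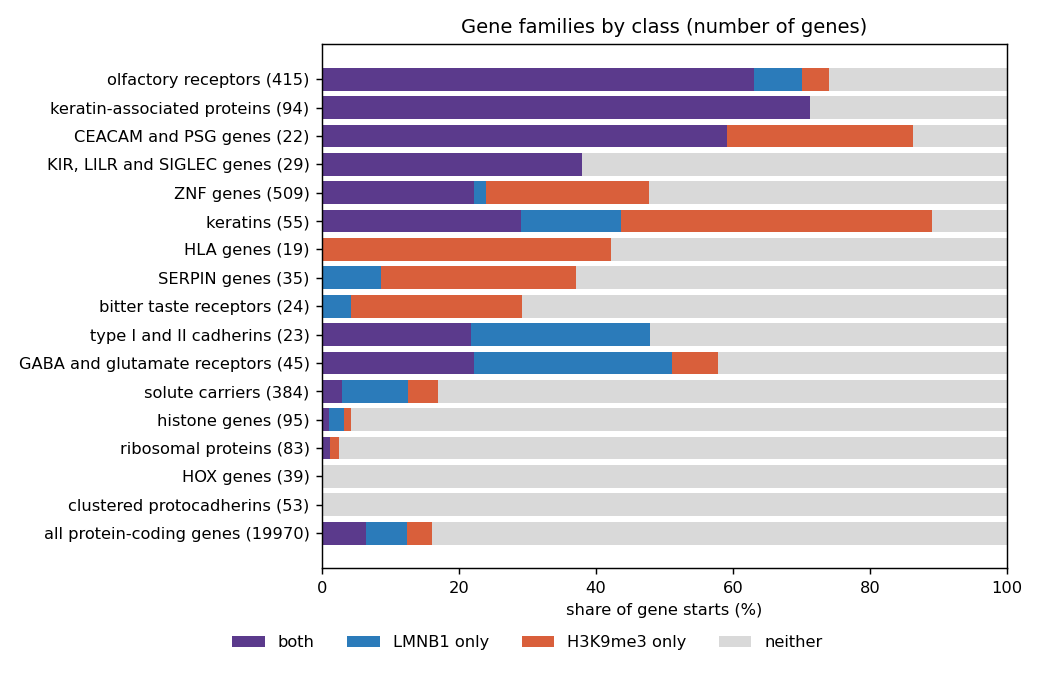
Share of gene starts (x axis, %) in shared, LMNB1-only, H3K9me3-only and neither class for 16 families and for all 19970 protein-coding genes, with the number of genes in parentheses. Olfactory receptor and keratin-associated genes are mostly shared, ZNF genes and keratins are divided between shared and H3K9me3-only sequence, and HOX genes and clustered protocadherins are outside all domains.

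Lists of metastasis, mesenchymal, basal, luminal and interferon-stimulated genes lay in domains at shares above the 16.01% of all protein-coding genes (3198 of 19970). The lists held 10 to 20 genes and their shares were not tested. The luminal and interferon-stimulated shares were the closest to that background. A list of immune and stromal markers was also above it, with 4 of 13 in domains (30.8%). A share above the background was thus not particular to genes linked to this line. In domains were 6 of 20 metastasis genes, 4 of 15 mesenchymal genes, 6 of 10 basal genes, 3 of 15 luminal genes and 4 of 20 interferon-stimulated genes. Some of these genes are neighbours, so the counts are not of independent placements. CAV1, CAV2 and MET lie in the same LMNB1-only stretch, and KRT14 lies near KRT17 and IFI44L near IFI44. Of 20 genes on a list of metastasis genes, 3 were shared (MMP2 and ST6GALNAC5 without a peak, and TNC, a matrix protein gene, with H3K4me3 at 13.6), 3 LMNB1-only and 14 in neither class. The 3 in LMNB1-only sequence were PTGS2, KYNU (4.37) and VCAM1, an adhesion molecule gene without a peak. Of 15 mesenchymal and epithelial-mesenchymal transition genes, CDH11 was shared, and TWIST1 and PRRX1, both without a peak, and ZEB2 (12.7) were LMNB1-only. Of 20 interferon-stimulated genes, IFI44L (11.5), IFI44 (10.3) and RSAD2 (no peak) were shared and IFIH1, an RNA sensor gene (29.6), was LMNB1-only. The basal genes in domains were CAV1, CAV2 and MET, all LMNB1-only, and the H3K9me3-only keratins KRT5, KRT14 and KRT17. The luminal ones were KRT19 and the pioneer factor gene FOXA1 (8.57) in shared sequence and the progesterone receptor gene PGR, without a peak, in LMNB1-only sequence.

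H3K9me3-only sequence held more microRNA genes per Mb than the other classes, mostly in a pair of loci. Of 1558 hairpins in RefSeq (GRCh38.p14), 82 were shared, 114 LMNB1-only, 150 H3K9me3-only and 1212 in neither class. The densities were 0.171, 0.220, 1.01 and 0.687 per Mb, against 0.535 per Mb over all sequence. Chromosome 19 contributed 49 and chromosome 14 contributed 46 of the 150, so most come from a pair of loci. The density of the class thus does not describe the rest of its sequence. All 49 lay in the zinc finger stretch at chr19:51750001-53797000, and include the primate-specific placental cluster, 43 hairpins in 95.8 kb from chr19:53666679-53762430, and the neighbouring embryonic stem cell genes MIR371A, MIR372 and MIR373. On chromosome 14, 40 lay within 44.7 kb at chr14:101022066-101066801, the imprinted cluster that includes MIR379, MIR134 and MIR410. Neither cluster held an H3K4me3 or H3K27ac peak, and the nearest H3K4me3 summit was 112 kb and 329 kb before the first hairpin.

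The largest LMNB1-only cluster was the miR-17 cluster, 6 hairpins in 0.787 kb at chr13:91350605-91351391, known for promoting cell proliferation. The nearest H3K4me3 and H3K27ac summits lay 1.35 kb before its first hairpin, with folds of 35.3 and 11.3. The mature sequences link these clusters by their seed, bases 2 to 8, which is in capitals below. Of the 234 mature names in H3K9me3-only sequence, 7 have the seed AAGUGCU, of 12 with that seed in RefSeq as a whole, and those of MIR520A, MIR520C, MIR372 and MIR373 are shown. The seed AAAGUGC, offset from it by a base, is found in 8 mature names in RefSeq as a whole. Among them are miR-17-5p and miR-20a-5p of the LMNB1-only cluster and miR-519d-3p of the H3K9me3-only placental cluster, so the seed is not particular to these.
hsa-miR-520a-3p: aAAGUGCUucccuuuggacugu
hsa-miR-520c-3p: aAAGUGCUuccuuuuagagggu
hsa-miR-372-3p: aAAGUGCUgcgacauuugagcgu
hsa-miR-373-3p: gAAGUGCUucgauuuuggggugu
hsa-miR-519d-3p: cAAAGUGCcucccuuuagagug
hsa-miR-17-5p: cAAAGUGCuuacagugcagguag
hsa-miR-20a-5p: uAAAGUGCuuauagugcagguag

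The sequences show the same seed in genes of different classes, with the flanking bases differing between clusters. No RNA was measured, so the lists say nothing of whether these microRNAs were made. The microRNA loci were chosen for description after their classes were seen.

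PML domains covered LMNB1 sequence with or without H3K9me3, and little of the rest. PML is the scaffold protein of PML nuclear bodies. Its domains covered 83.4% of shared, 90.4% of LMNB1-only, 10.8% of H3K9me3-only and 4.82% of neither class. Shared coverage exceeded H3K9me3-only coverage on 22 of 22 autosomes. The share of the H3K9me3-only class ranged over autosomes up to 69.0%, on chromosome 22.

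In the lists of PML knockdown cells, LMNB1-only and shared sequence mostly stayed in LMNB1 domains, while the H3K9me3 of shared sequence was kept in part. Of shared sequence, 91.4% was in knockdown LMNB1 domains and 36.2% in knockdown H3K9me3 domains. Of LMNB1-only sequence the shares were 89.4% and 0.206%, and of H3K9me3-only sequence 4.32% and 72.0%. H3K9me3-only sequence was kept in the knockdown H3K9me3 list to a greater extent than shared sequence on 20 of 22 autosomes, but this order turned at matched regional GC, as given below. In the knockdown lists, 16.7% of LMNB1 length was in H3K9me3 domains, against 48.1% in the control lists. The knockdown H3K9me3 list is shorter, with 361 Mb against 629 Mb in control, and no replicate value tells how much of that is a difference in calling.

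What was kept differed with regional base composition. In decile 1 of regional GC, 1.17% of shared sequence was in knockdown H3K9me3 domains, in decile 5 25.5%, and in decile 10 98.3%. For H3K9me3-only sequence deciles 5 and 10 gave 11.01% and 93.3%. In every decile from 5 to 10 shared sequence was kept to a greater extent than H3K9me3-only sequence, with 53.7% against 39.3% in decile 6 and 86.8% against 85.3% in decile 8, which is the reverse of the order over the whole genome. In deciles 3 and 4, where H3K9me3-only sequence came to 2.45 and 5.97 Mb, it was the higher, at 8.33% and 10.35%, against 5.65% and 8.95% of shared sequence. The knockdown LMNB1 list went the other way and more gradually, with 100% of shared sequence in decile 1 and 72.9% in decile 10. Why GC content and membership moved together was not tested.

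**Figure D5:**
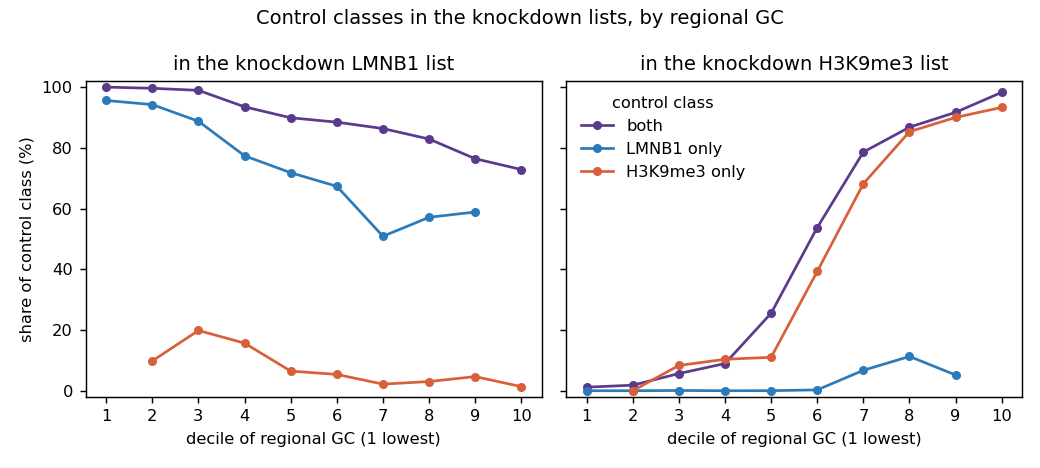
Share of each control class (y axis, %) in the knockdown LMNB1 list (left) and the knockdown H3K9me3 list (right), by decile of the GC content of the surrounding 500 kb (x axis), where the class holds at least 1 Mb. In the right panel shared sequence (purple) is at 1.17% in decile 1 and 98.3% in decile 10.

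Of all protein-coding genes, 1718 started in knockdown and 1997 in control H3K9me3 domains, and 1038 in both, which is 51.98% of the control count. Gene families differed in that share. Of the 278 olfactory receptor genes in control H3K9me3 domains, 57 (20.5%) were also in the knockdown list, which held 3 others. For ZNF genes 165 of 234 (70.5%) were in both lists and 24 in the knockdown list only, and for keratin-associated genes 34 of 67 (50.7%) and 21. All 41 keratins of the control list were in the knockdown list, which held 4 more. In LMNB1 domains there were 274 olfactory receptor genes in knockdown and 291 in control cells. All 7 killer-cell receptor genes and all 10 PSG genes were in the knockdown H3K9me3 list as in control, but of these only the PSG genes were still in the knockdown LMNB1 list. None of the 7 HLA-DR and HLA-DQ genes was in a knockdown domain of either target.

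Promoter marks in the classes were similar in the knockdown peak lists. H3K4me3 marked 23.4% of shared promoters in the knockdown list, against 21.3% in control, 57.3% against 56.7% of LMNB1-only promoters, and 34.8% against 32.7% of H3K9me3-only promoters. In neither class it marked 68.5% against 66.5%. The knockdown H3K4me3 list is the longer in every class, and without replicates these differences cannot be set against an error.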

How the data were processed

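The data are lists of domains and peaks from chromatin immunoprecipitation sequencing of MDA-MB-231 cells, aligned to hg38 per the submitters' processing notes. Those notes list MACS2 2.2.7.1, deepTools, Picard 1.104 and BWA 0.7.12-r1039 and give none of them a step. The authors' domain lists give each domain a score of unstated unit. Only the names of those lists point to a caller, EDD. The deposited peak lists have the MACS2 layout, with a fold enrichment (a ratio to background) and a −log10 q-value for every peak. Peak names mark replicates 1 and 2 as pooled. No source used here says whether domains were called on pooled libraries. The peak lists' marks ct and pml were read as control and PML knockdown, which is an assumption. Depth is unknown, so no interval could be given.

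Domains were laid on 1 kb bins of chromosomes 1 to 22 and X outside assembly gaps of at least 10 kb. GENCODE release 44 gave 19970 protein-coding genes, placed by the start of the Ensembl canonical transcript, and a promoter was that start with 1 kb on either side. Peaks were placed by their summit. MicroRNA hairpins and mature sequences came from RefSeq, and CpG counts from hg38, with strata of 0 to 5, 6 to 17 and at least 18 set after other results had been seen. Class lengths were tested on simulated intervals and checked with bedtools 2.31.1, which gave the same 480.03 Mb of shared sequence with gaps included. The software was Python 3.11.15 with numpy 2.4.6, pandas 2.3.3 and matplotlib 3.10.9.

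No test was made, since each target and condition has 1 list. Genes were named by rule: up to 4 in each of the 4 longest stretches of a class, the 6 highest promoter peaks per class and mark, and members of gene lists and families in domains. Any other gene or microRNA named was chosen after its values were seen. The members, gene lists and families were chosen with earlier results of these data known. H3K27me3 and input libraries were not used here. The soft-masked share of each class was not computed, because the reference used has no soft-masking.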

Additional observations from a re-analysis of the deposited data

How the results depend on the processing

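The 29 class values were recomputed under 12 alternatives, which gave 213 values, and 209 moved by less than 1 SD over autosomes. That SD is wide, so a move within it says little. The 4 that moved more came from cutting the LMNB1 list, highest score first, to 113 domains with about the length of the H3K9me3 list: 46.6% of H3K9me3 length was then in LMNB1 domains, and of H3K9me3-only sequence 42.9% was in PML domains and 47.8% in knockdown LMNB1 domains, at 42.4% GC. By construction, sequence of lower-scoring LMNB1 domains enters the H3K9me3-only class there. The share of LMNB1 length in H3K9me3 domains was 46.4% under the same cut. The other alternatives were domains of at least 500 kb, domains joined within 100 kb, bins within 50 kb of a border left out, autosomes only, without chromosome 19, peaks with a −log10 q of at least 5, promoters of 500 or 2500 bp on either side, peaks counted in every class they overlap, genes placed by 50% of their body and, added after seeing the data, promoters without 3 gene families. No paired analysis was possible because the lists are pooled and hold no value per library, and for the same reason no replicate could be left out.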

Other observations

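Position along the chromosome arms differed between the classes in a further way. With each chromosome cut into 10 segments of equal length, H3K9me3-only sequence made up 8.37% of segment 1 and 11.8% of segment 10, and between 2.50% and 5.91% of those between them. LMNB1-only sequence had its highest share, 32.7%, in segment 8, where shared sequence had its lowest, 9.80%. Segments of different chromosomes differ in length and in distance from the centromere, and these values were not tested.

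Kallikrein genes, none of them in a control domain of either target, were in the knockdown H3K9me3 list in 15 of 16 cases. Of the 12 SIGLEC genes, most of them also on chromosome 19 and all in neither control list, 8 were in that list. Of all 19970 protein-coding genes, 680 were in the knockdown but not the control H3K9me3 list. Of the length in neither control class, 4.51% was in the knockdown H3K9me3 list. Both sets of genes were picked for description after their values were seen. Genes of a cluster share their position, and no replicate value bears on them.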
